A study of Mus musculus with 6 samples.

Results

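The 9 genes described here belong to the cytochrome P450 family 4 (Cyp4) of the mouse: Cyp4a10, Cyp4a12a, Cyp4a14, Cyp4b1, Cyp4f13, Cyp4f14, Cyp4f15, Cyp4f16 and Cyp4v3. They were chosen by gene family, and each was found as 1 probe set among the 21115 of the array. A further 9 probe sets with a Cyp4 symbol were on the array and are given beside them. RNA came from primary hepatocytes of C57BL/6 mice, in 3 samples that received recombinant BMP2 (50 ng/ml) over 24 hours and in 3 control samples without it. Whether control samples received the solvent of BMP2 is not given in the sources used here. The cells were plated in serum with dexamethasone, kept overnight without serum, and then moved to a medium without serum or dexamethasone, and this holds for both groups. The study design states that the cells came from 3 mice, each group numbers its samples from 1 to 3, and age and sex of the mice are not given in the sources used here. BMP2 is a growth factor whose receptors phosphorylate SMAD proteins, and the title of the series concerns its role in iron balance.

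Cyp4 enzymes are membrane-bound monooxygenases that place a hydroxyl group at or next to the far (omega) end of fatty acids and eicosanoids. In mouse liver Cyp4a10 and Cyp4a14 are classic targets of the fatty acid receptor PPAR alpha. The Cyp4a enzymes start the omega-oxidation of fatty acids, which ends in dicarboxylic acids broken down in peroxisomes. The Cyp4f enzymes inactivate leukotriene B4 and shorten the side chains of fat-soluble vitamins. Electrons reach these enzymes from NADPH-cytochrome P450 reductase and cytochrome b5.

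Of the 9 genes 3 gave a signal above the array's dim range, namely Cyp4f13, Cyp4v3 and Cyp4f16, and 6 did not. None of the 9 passed a threshold of 0.05 on the limma adjusted p (0.48 to 0.98) in the fit that leaves out the replicate numbers. Of all 21115 probe sets 1.19% passed it, 0.616% being higher and 0.573% lower with BMP2. Among the probe sets above the dim range 2.43% passed. With a block for the replicate number (the replicate block) 0 of the 9 and 3.32% of all probe sets passed. At an unadjusted p under 0.05 the count of the 9 was also 0, against 12.5% of all probe sets. The largest difference was that of Cyp4v3, which was 0.18 higher with BMP2 on the log2 scale, or 1.13-fold (95% interval 0.98-fold to 1.30-fold).

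The promoters of the 3 genes with a signal are shown because their upstream sequence can be set beside their levels. The RefSeq promoter table (GRCm38.p6, 250 bases before to 50 after a transcript start) matched 6 of the 9 genes, and Cyp4a10, Cyp4a12a and Cyp4a14 were not matched. The 160 bases just before the start are printed 5′ to 3′ on the strand of the gene. Capitals mark CCCGCCC (the GC box, bound by Sp1-type factors) and CCAAT (bound by NF-Y), each searched on both strands, so that ATTGG marks a CCAAT on the other strand.
Cyp4f13, chr17:32947362-32947521, minus strand: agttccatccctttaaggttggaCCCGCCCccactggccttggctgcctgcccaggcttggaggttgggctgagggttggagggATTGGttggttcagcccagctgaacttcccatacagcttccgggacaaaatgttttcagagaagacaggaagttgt
Cyp4f16, chr17:32536397-32536556, plus strand: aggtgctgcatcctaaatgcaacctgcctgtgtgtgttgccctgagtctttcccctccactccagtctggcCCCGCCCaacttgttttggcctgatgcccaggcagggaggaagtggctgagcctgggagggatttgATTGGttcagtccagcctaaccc
Cyp4v3, chr8:45333164-45333323, minus strand: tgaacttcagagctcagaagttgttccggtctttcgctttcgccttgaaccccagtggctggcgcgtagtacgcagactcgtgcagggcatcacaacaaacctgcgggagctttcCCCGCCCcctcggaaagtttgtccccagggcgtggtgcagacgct

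All 3 windows hold 1 GC box, which 25.6% of the 32851 promoter windows of the same 300 bases hold. Cyp4f13 and Cyp4f16, both of the Cyp4f cluster on chromosome 17, also hold 1 CCAAT (37.4% of all windows). Of the matched genes in the dim range, Cyp4f15 holds 1 GC box and 1 CCAAT, Cyp4f14 holds a CCAAT in each of its windows and no GC box, and Cyp4b1 holds neither. The windows differ in CG dinucleotides. Cyp4v3 has 17, an observed-over-expected ratio of 0.759 that lies at the 75.7 percentile of all windows, and Cyp4f16 has 2, a ratio of 0.088 at the 11.6 percentile. The letters AGGTCA, which nuclear receptors such as PPAR alpha and HNF4A bind in pairs, and GGCGCC, a motif of BMP-SMAD complexes, were searched on both strands and occur in none of the 9 windows of the 6 matched genes, against 16.3% and 11.9% of all windows. Several of the 9 are overlapping windows of Cyp4f14, and the Cyp4a genes could not be searched. At these shares so few windows cannot show that the family is short of either motif.

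An array gives no counts, so the precision rested on 3 samples per group. The labels do not say whether a replicate number marks 1 mouse in both groups. Samples of the same number did deviate together from their group means (r = 0.48, 0.58 and 0.61 over probe sets, against -0.545 to 0.18 for different numbers). Unless the replicate block is named, values come from the fit without it. The values are the authors' log2 expression values, which ranged from 6.35 to 14.02, with sample medians of 6.80 to 6.81. The dim end was judged from olfactory receptor genes, whose known place of expression is the nose. The mean level over the 6 samples had a median of 6.47 and a 99th percentile of 6.89 over their 1094 probe sets, and 6.89 is taken here as the dim limit. At or under it a signal was not told apart from that of an unused probe set, a real change could be hidden, and a small difference does not show that a gene was unchanged. The limit is strict, and the Cyp4 genes under it stood at unlike percentiles of the olfactory receptor probe sets. These were 98.1 for Cyp4f15, 98.0 for Cyp4b1 and Cyp4f14, 97.2 for Cyp4a10, 90.2 for Cyp4a12a and 77.5 for Cyp4a14. Of all 21115 probe sets 9710 lay above it. Because probes of different genes respond differently, levels are not ranked between genes.

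**Figure D1:**
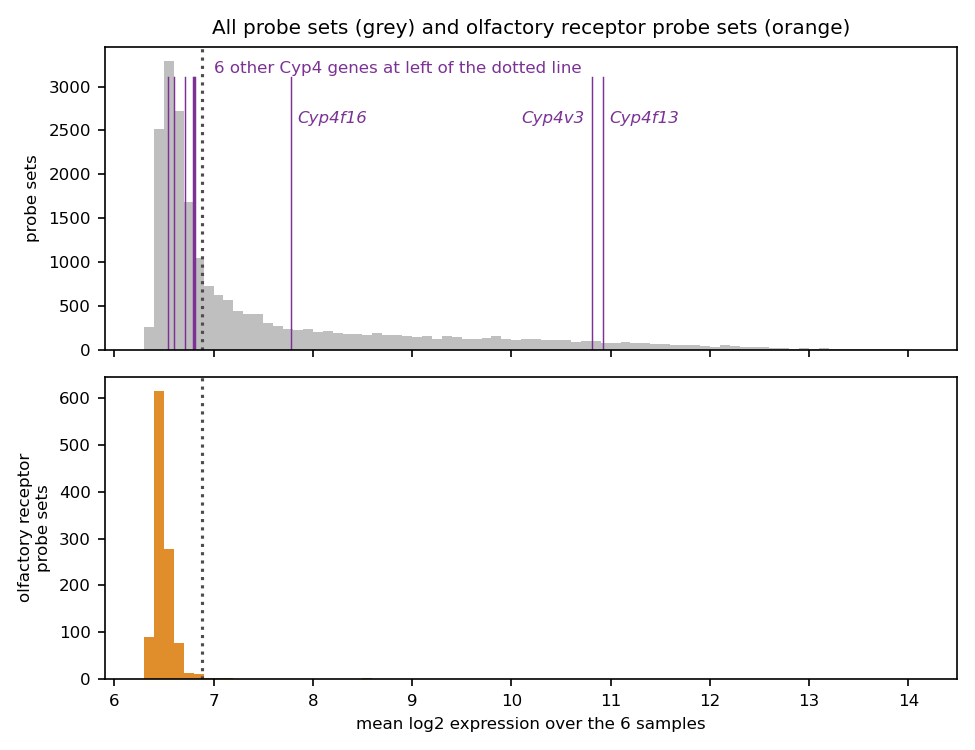
Distribution of mean log2 expression over the 6 samples, for all 21115 probe sets (upper panel) and the 1094 olfactory receptor probe sets (lower panel), as numbers of probe sets per bin of 0.1. Purple lines mark the 9 Cyp4 genes and the dotted line the dim limit of 6.89: Cyp4f16 at 7.78, Cyp4v3 at 10.81 and Cyp4f13 at 10.92 lie to its right and the other 6 to its left.

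Cyp4v3 is the mouse counterpart of human CYP4V2, a fatty acid hydroxylase of the retina and other tissues whose loss causes Bietti crystalline dystrophy in people. Its level was 10.97, 11.00 and 10.72 in BMP2 replicates 1, 2 and 3, against 10.72, 10.75 and 10.71 in control replicates 1, 2 and 3. Replicates 1 and 2 with BMP2 lay above every control, replicate 3 with BMP2 lay among the controls, and so the groups overlapped. The mean was 10.90 ± 0.15 in BMP2 samples and 10.72 ± 0.02 in control samples (SD, n = 3 each), a difference of 0.18 ± 0.08 (SE) with a limma adjusted p of 0.48. Differences between samples of the same number were 0.26, 0.25 and 0.02. Without BMP2 replicate 3 the difference was 0.26 with a limma adjusted p of 0.0255, and without both samples of replicate 3 it was 0.25 with an adjusted p of 0.0587. With any other single sample left out the adjusted p was 0.63 to 0.76. The call for Cyp4v3 therefore turned on 1 library.

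Cyp4f13 is a member of the Cyp4f subfamily. Its level was 11.00, 11.04 and 10.87 with BMP2 and 10.90, 10.89 and 10.81 in control samples, in the order of the replicates. Each BMP2 sample lay above the control of its own number, as in Cyp4v3 and Cyp4f14 and in 19.1% of all probe sets (27.7% of those above the dim limit), and replicate 3 was the lowest in both groups, so that BMP2 replicate 3 lay between the controls. The means were 10.97 ± 0.09 with BMP2 and 10.87 ± 0.05 in control (SD, n = 3 each), a difference of 0.10 ± 0.05 (SE; 95% interval -0.03 to 0.24; limma adjusted p = 0.55). The replicate block narrowed the interval to between 0.03 and 0.17, with an unadjusted p of 0.017 and an adjusted p of 0.15. Without the block 0 of the 9 and with it 1 of the 9, Cyp4f13, had an unadjusted p under 0.05, and 18.0% of all probe sets did so with the block.

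Cyp4f16, another Cyp4f gene, had levels of 7.75, 7.84 and 7.68 with BMP2, against 7.80, 7.79 and 7.80 in control. The 3 controls were almost level with each other (SD 0.006), and the BMP2 samples lay on both sides of them (SD 0.08). The difference was -0.05 ± 0.04 (SE), with a 95% interval of -0.15 to 0.06 and a limma adjusted p of 0.82. It was -0.0868 without BMP2 replicate 2 (adjusted p = 0.32) and -0.0086 without BMP2 replicate 3 (adjusted p = 0.98), so its size turned on single libraries while its sign did not. A change as large as that of Cyp4v3 in replicates 1 and 2 lay outside this interval in either direction.

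**Figure D2:**
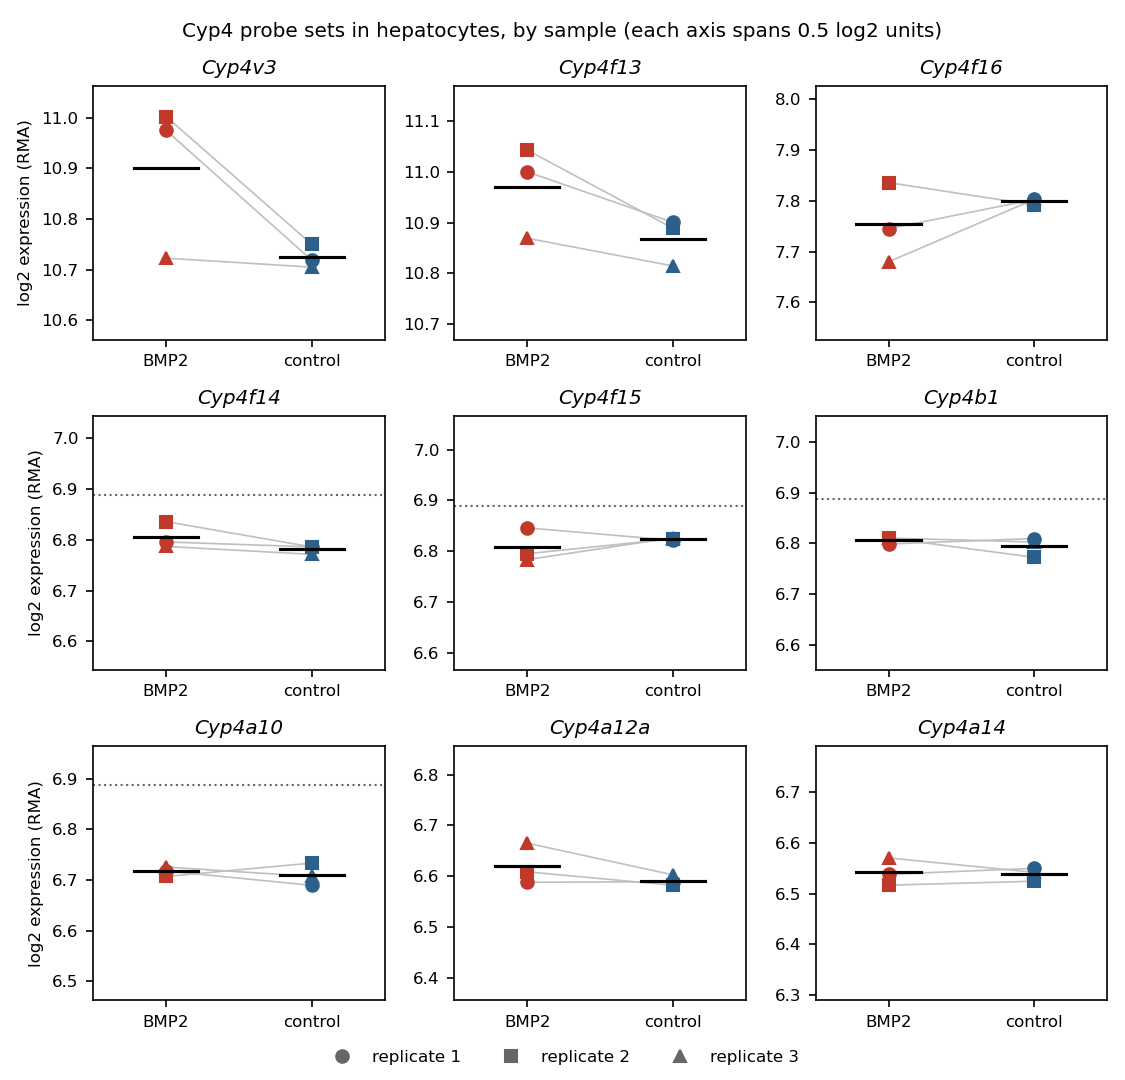
Log2 expression of the 9 Cyp4 genes in BMP2 samples (red, left) and control samples (blue, right). Marker shapes show the replicate number, grey lines join samples of the same number, black bars are means, every axis spans 0.5 log2 units, and the dotted line is the dim limit of 6.89 where it falls in the panel. Cyp4v3 and Cyp4f13 show higher values with BMP2 in all 3 pairs, with BMP2 replicate 3 of Cyp4v3 at 10.72 beside the controls.

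The other 2 Cyp4f genes had no signal above the dim limit. Cyp4f14, which in the mouse hydroxylates leukotriene B4 and vitamin E and is well known in liver, had 6.80, 6.84 and 6.79 with BMP2 and 6.79, 6.79 and 6.77 in control. It was the single gene of the 9 whose groups did not overlap, with 6.787 as the lowest BMP2 sample and 6.786 as the highest control. Over all probe sets 8.42% had every BMP2 sample above every control, and 8.25% had every BMP2 sample below, so a count of 1 in 9 is close to that background. Its difference was 0.03 ± 0.02 (SE, limma adjusted p = 0.66). Cyp4f15 had 6.85, 6.79 and 6.78 with BMP2, which lay on both sides of controls at 6.82, 6.82 and 6.83, and a difference of -0.02 (adjusted p = 0.88).

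The Cyp4a genes, whose induction by PPAR alpha agonists defines them in rodent liver, were all in the dim range. Cyp4a10, an omega-hydroxylase of lauric and arachidonic acid, had 6.72, 6.71 and 6.73 with BMP2 and 6.69, 6.73 and 6.71 in control (difference 0.01, 95% interval -0.03 to 0.04, limma adjusted p = 0.95). Cyp4a14, a close relative that PPAR alpha agonists and fasting induce in mouse liver, had 6.54, 6.52 and 6.57 with BMP2 and 6.55, 6.52 and 6.54 in control (difference 0.003, adjusted p = 0.98). In both genes the groups were interleaved.

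Cyp4a12a forms the vasoactive eicosanoid 20-HETE and is much higher in male than in female mice. It had 6.59, 6.61 and 6.67 with BMP2 and 6.59, 6.58 and 6.60 in control, with a difference of 0.03 ± 0.02 (SE, limma adjusted p = 0.76). Xist, transcribed from the inactive X chromosome of females, averaged 6.49 in BMP2 and 6.48 in control samples. The Y-linked Eif2s3y averaged 9.92 in BMP2 and 9.89 in control samples. Cyp4a12a was thus dim in cells with a Y-linked signal and with Xist in the dim range. Of 15 measured genes known as higher in male liver 8 lay above the dim limit, and of 17 known as higher in female liver 2 did. Of all probe sets 46.0% lay above it. In the male list 1 gene passed, Cyp2u1, which rose, and in the female list 0 did. The share that passed was 1.19% of all probe sets and 2.43% of those above the dim limit.

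Cyp4b1 is better known from lung, where it activates protoxins. It had 6.80, 6.81 and 6.81 with BMP2 and 6.81, 6.77 and 6.80 in control, a difference of 0.01 (limma adjusted p = 0.86) with overlapping groups. For the 6 dim genes together the differences lay between -0.02 and 0.03, and the span of the 6 samples lay between 0.04 and 0.08 on the log2 scale. The olfactory receptor probe sets had a median span of 0.02 and a 99th percentile of 0.11, so the 6 genes all spanned less than that percentile.

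The 9 other Cyp4 probe sets were Cyp4a12b, Cyp4a31, Cyp4a32, Cyp4f18, Cyp4f37, Cyp4f39, Cyp4f40, Cyp4x1 and the pseudogene Cyp4f41-ps. All 9 were at or under the dim limit, with mean levels of 6.49 to 6.70, and 0 of 9 passed (lowest limma adjusted p 0.64, and 0 at an unadjusted p under 0.05). Cyp4a12a and Cyp4a12b, and Cyp4a10, Cyp4a31 and Cyp4a32, are near-identical copies, and how their probes divide the signal is not given in the sources used here.

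**Figure D3:**
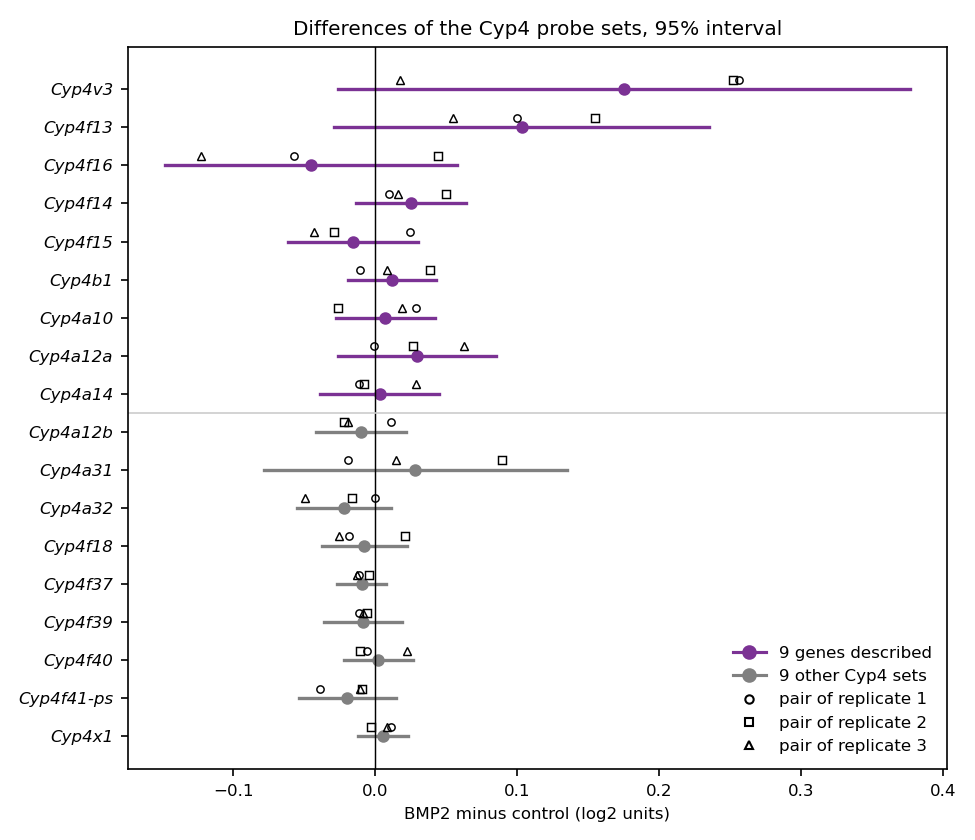
Difference BMP2 minus control in log2 units (filled points) with its 95% interval from limma (bars), for the 9 genes described (purple, upper) and the 9 other Cyp4 probe sets (grey, lower). Open symbols are the differences within pairs of the same replicate number. All 18 intervals include 0, and Cyp4v3 has the largest difference, 0.18.

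Along the chromosomes, the RefSeq gene table (GRCm38.p6) was used only to see which measured genes lie next to each other. The Cyp4f14 and Cyp4f13 genes are neighbours on chromosome 17, with Cyp4f13 well above the dim limit and Cyp4f14 under it in both groups. Cyp4v3 on chromosome 8 lies between Klkb1, the plasma prekallikrein gene, and Fam149a. Klkb1 averaged 6.98 with BMP2 and 6.86 in control (difference 0.11, limma adjusted p = 0.15), and Fam149a 9.17 with BMP2 and 9.50 in control (difference -0.33, adjusted p = 0.28). Neither neighbour passed, and they differed in opposite directions.

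Genes with the most similar course over the 6 samples were sought for the 3 genes with the widest span, by the root mean square difference of profiles centred on their own mean, among 18978 named genes. For Cyp4v3 the nearest were Abca8b (0.0186), a transporter gene, Pepd (0.0188), which encodes the dipeptidase prolidase, and Prxl2c (0.0247). For Cyp4f13 they were Aktip (0.0136), Elmod2 (0.0149) and Fbxo6 (0.0150), and for Cyp4f16 they were Zcrb1 (0.0117), Ccdc90b (0.0152) and Fundc1 (0.0156), all in log2 units. Pepd had 9.07, 9.10 and 8.86 in BMP2 samples and 8.84, 8.89 and 8.81 in control samples. None of these 9 genes passed in limma (adjusted p 0.44 to 0.93). Their choice by likeness to genes short of the threshold made this likely, so it is no separate result. The samples and their deviations are shared by all genes of the array, and the likeness was not tested.

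The receptor with Cyp4a genes among its targets was itself dim. Ppara averaged 6.83 ± 0.01 with BMP2 and 6.84 ± 0.03 in control (SD, n = 3 each; limma adjusted p = 0.98). Of 15 measured genes for PPARs, their partners and other liver nuclear receptors 14 failed to pass and 1 was higher with BMP2. Of all probe sets 1.19% passed, and of those above the dim limit 2.43%. The median difference of the list was 0.04 against 0.0007 over all probe sets. The gene that passed was Hnf4a, a receptor that binds the same kind of repeat (0.82, limma adjusted p = 0.0097). Pparg, the adipogenic PPAR, had 9.40, 9.75 and 9.30 with BMP2 and 8.07, 8.48 and 8.39 in control, so the groups were apart (1.17 ± 0.16, adjusted p = 0.054). The blocked model put the adjusted p of Pparg at 0.039 and so called 2 genes of the list, against 3.32% of all probe sets. Rxra, the shared partner of PPARs, differed by 0.28 ± 0.05 (adjusted p = 0.091), and Nr1i2, the xenobiotic receptor PXR, by 0.21 ± 0.07 (adjusted p = 0.29). Hnf4a lost its call without BMP2 replicate 1 (0.067) or control replicate 2 (0.065), and 0 genes of the list were called with both samples of any 1 replicate number left out.

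Known PPAR alpha target genes outside the Cyp4 family were measured far better, 27 of 37 being above the dim limit. Of the 37, 3 rose and 34 failed to pass, with 0 lower. The share that passed was 1.19% of all probe sets and 2.43% of those above the dim limit. In 32 of the 37 the difference was above 0, and the median difference was 0.04. Over all probe sets 51.75% lay above 0. The risers were Creb3l3, a liver transcription factor of fasting (0.40 ± 0.05, limma adjusted p = 0.040), Hadha, of mitochondrial beta-oxidation (0.16 ± 0.02, adjusted p = 0.046), and Plin4, a lipid droplet protein gene (0.10 ± 0.01, adjusted p = 0.020), whose control level of 6.88 lay at the dim limit. Creb3l3 had 7.45, 7.55 and 7.46 with BMP2 and 7.15, 7.11 and 7.003 in control, with the groups well apart. Pex11a, which divides peroxisomes, differed by 0.59 ± 0.09 (adjusted p = 0.061), and Cpt1a, the gate of mitochondrial fatty acid uptake, by 0.30 ± 0.05 (adjusted p = 0.090). Vnn1, a pantetheinase gene, differed by -0.63 ± 0.11 (adjusted p = 0.080).

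With the replicate block the count for these targets was 4 higher and 1 lower, where 3.32% of all probe sets passed in either direction. Acadm (adjusted p = 0.037) and Decr2 (0.044) rose, Vnn1 fell (0.010), and Hadha no longer passed (0.074). None of the 3 risers passed in limma with any 1 of the 6 samples left out, where the adjusted p was 0.070 to 0.157 for Creb3l3, 0.052 to 0.180 for Hadha and 0.052 to 0.0996 for Plin4. Other targets were as dim as the Cyp4a genes, among them Fgf21 (6.60 with BMP2 and 6.60 in control), Acot1 (6.68 and 6.69) and Fabp1 (6.62 and 6.55), the last known as a very abundant liver transcript.

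**Figure D4:**
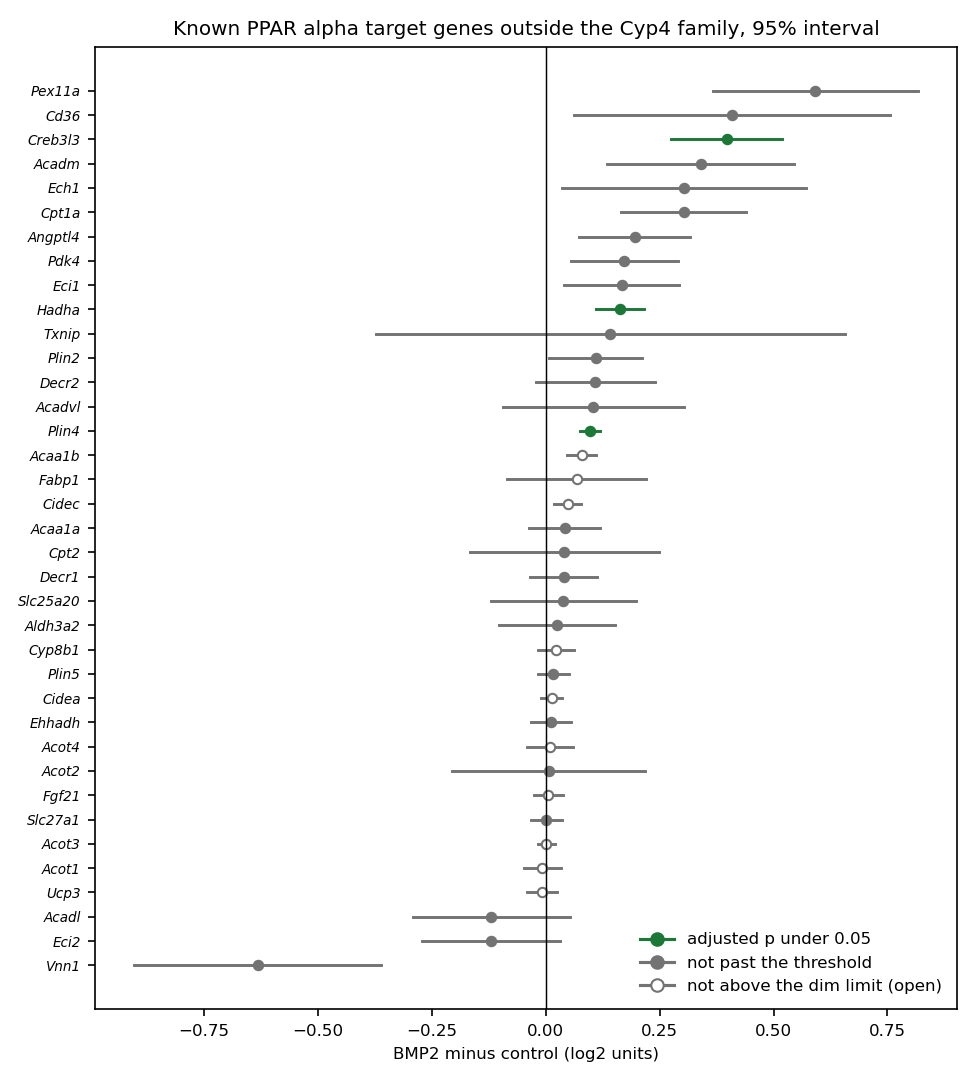
Difference BMP2 minus control in log2 units with its 95% interval from limma for the 37 measured PPAR alpha target genes outside the Cyp4 family, ordered by size. Green marks the 3 genes with an adjusted p under 0.05 (Creb3l3, Hadha and Plin4) and open points the 10 genes not above the dim limit; 32 of the 37 points lie to the right of 0, up to 0.59 for Pex11a, and Vnn1 lies at -0.63.

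Of 8 listed electron donors and haem-binding partners of P450 enzymes 6 were measured, all above the dim limit. Por, the gene of NADPH-cytochrome P450 reductase, and Fdxr were not found under their symbols, so the main donor of Cyp4 enzymes was not assessed. Of the 6 measured, 1 rose and 5 failed to pass, with 0 lower, where 2.43% of all probe sets above the dim limit passed. The riser was Fdx1, the ferredoxin of mitochondrial P450 enzymes, which does not serve the Cyp4 enzymes of the endoplasmic reticulum. It had 7.51, 7.47 and 7.51 with BMP2 and 7.31, 7.33 and 7.34 in control, with the groups apart (0.17 ± 0.02, limma adjusted p = 0.026). With 1 sample left out it passed only without BMP2 replicate 2 (0.041), and the adjusted p was 0.060 to 0.123 without each of the others. Pgrmc1, a haem protein that binds P450 enzymes, differed by 0.22 ± 0.05 (adjusted p = 0.14). Cyb5a, the cytochrome b5 that serves many P450 reactions, differed by 0.05 ± 0.11 (adjusted p = 0.95), with 12.27, 12.34 and 11.95 in BMP2 and 12.17, 12.10 and 12.13 in control samples. In Cyb5a BMP2 replicate 3 was the lowest of the 6 samples.

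The enzymes that act after omega-hydroxylation oxidise the new alcohol to a dicarboxylic acid and shorten it in peroxisomes. Of 21 measured genes of this route 0 passed in limma over all genes, against 1.19% of all probe sets, and 5 had an unadjusted p under 0.05, against 12.5% of all. Of the 21, 18 lay above 0, against 51.75% of all probe sets, and the median difference was 0.05. Adh1, an alcohol dehydrogenase gene, had 10.78, 11.05 and 10.40 with BMP2 and 9.59, 9.99 and 8.84 in control. Every BMP2 sample was above every control, and the controls spread over more than 1 log2 unit (difference 1.27 ± 0.34, limma adjusted p = 0.21). With the replicate block, which removes the low level of replicate 3 in both groups, Adh1 rose (adjusted p = 0.041). It was the 1 gene of the list to do so, where 3.32% of all probe sets passed with the block. Slc27a2, a fatty acid transporter and acyl-CoA synthetase, differed by 0.64 ± 0.18 (adjusted p = 0.24), Adh4 by 0.16 ± 0.05 (adjusted p = 0.29) and Acaa1b, a peroxisomal thiolase, by 0.08 ± 0.01 (adjusted p = 0.069) in the dim range. Aldh3a2, the fatty aldehyde dehydrogenase, averaged 11.60 with BMP2 and 11.57 in control (adjusted p = 0.95).

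Of 30 measured genes that make or break down eicosanoids, the other substrates of Cyp4 enzymes, 21 were not above the dim limit. In this list 1 gene rose, 0 fell and 29 failed to pass, and the median difference was -0.004. By comparison, 1.19% of all probe sets and 2.43% of those above the dim limit passed. Cyp2u1, a P450 that hydroxylates arachidonic acid at and near its omega end, rose by 0.23 ± 0.02 (limma adjusted p = 0.023), with 8.51, 8.57 and 8.49 in BMP2 samples above 8.30, 8.29 and 8.28 in control samples. It passed without BMP2 replicate 2 (0.019) or BMP2 replicate 3 (0.036), and not without BMP2 replicate 1 (0.096), control replicate 1 (0.083), control replicate 2 (0.113) or control replicate 3 (0.084). Hpgd, which inactivates prostaglandins, differed by -0.50 ± 0.09 (adjusted p = 0.095) and fell with the replicate block (adjusted p = 0.042). The block called 3.32% of all probe sets. Lta4h, which makes leukotriene B4, differed by -0.07 ± 0.02 (adjusted p = 0.27) and Pla2g6, a phospholipase, by 0.14 ± 0.04 (adjusted p = 0.29). The leukotriene genes Alox5, Ltc4s and Ltb4r1 were dim in both groups, at 6.58, 6.69 and 6.57 with BMP2 and 6.59, 6.70 and 6.58 in control.

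Markers of hepatocytes were largely present, 18 of 23 being above the dim limit, with Alb at 13.78 with BMP2 and 13.81 in control. The 5 others were Arg1, Cyp2e1, G6pc, Hal and Pck1, all abundant in intact liver, so that liver enzymes outside the Cyp4 family also lay in the dim range here. Whether this came from the culture or from the grouping of probes was not tested. Of this list 1 gene rose, Hnf4a, where 1.19% of all probe sets passed. With the replicate block 4 genes of the list changed, with Ttr and Fga also higher and Glul lower, where 3.32% of all probe sets passed. Defining markers of other cells, such as Clec4f, Adgre1, Stab2, Pecam1, Lrat, Epcam and Cd3e, were dim. Above the limit lay 2 of 16 macrophage markers, 2 of 15 endothelial, 6 of 14 stellate cell and fibroblast, 3 of 9 cholangiocyte and 0 of 12 blood cell markers, and 0 of any of these lists passed in limma (lowest adjusted p 0.0505). At an unadjusted p under 0.05 there were 2 of 16 macrophage, 2 of 14 stellate cell and fibroblast and 2 of 9 cholangiocyte markers, against 12.5% of all probe sets. The replicate block called 1 of 15 endothelial markers, Emcn, and 1 of 9 cholangiocyte markers, Sox9, both higher with BMP2, against 3.32% of all probe sets. Of the 3 cholangiocyte markers above the limit, Sox9 and Cldn4 had differences above 0 (0.46 and 0.26) and Krt19 one below 0 (-0.51). The macrophage marker Cd14 had 7.73, 7.53 and 7.75 with BMP2 and 8.33, 8.22 and 8.15 in control, with every BMP2 sample below every control. Sox9 had 10.46, 10.44 and 10.29 with BMP2 and 10.07, 10.02 and 9.73 in control, with every BMP2 sample above every control. The mean level of a marker list per sample was 6.72 to 6.74 with BMP2 and 6.76 to 6.81 in control for macrophages, and 6.84 to 6.89 with BMP2 and 6.90 to 6.97 in control for stellate cells and fibroblasts. Single markers shared this direction only in part. Of the macrophage markers 8 had a difference above 0 and 8 below (median -0.0015), and 14 of the 16 were dim. Of the 2 above the dim limit 0 had a difference above 0 (median -0.45). Of the stellate cell and fibroblast markers 8 lay above 0 and 6 below (median 0.0011). Of the 6 above the dim limit 2 had a difference above 0 (median -0.04). In the other lists the groups overlapped, at 6.75 to 6.83 with BMP2 and 6.74 to 6.79 in control for endothelial cells, 7.77 to 7.81 with BMP2 and 7.70 to 7.82 in control for cholangiocytes, and 6.547 to 6.551 with BMP2 and 6.542 to 6.554 in control for blood cells. The part of these cells in the values of the Cyp4 genes was not tested, and fewer cells of a type and less RNA per cell cannot be told apart.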

How the data were processed

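Each probe set had 1 value per sample on the log2 scale, as deposited, and RMA produced it, per the submitters' processing notes. The RMA version, probe grouping, genome build and filters are not given in the sources used here. RMA puts arrays on a shared scale and can compress changes of dim genes. Probe sets were named through the platform annotation (20405 of 21115 had a symbol).

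The test of BMP2 against control used lmFit and eBayes of limma 3.58.1 under R 4.3.3 (two-sided, no covariates), and p-values were adjusted by Benjamini-Hochberg across the 21115 probe sets. The SE and interval of a difference come from this model, and SDs from 3 samples per group. Samples that share a replicate number deviated together from their group means (r = 0.48, 0.58 and 0.61 over probe sets), so the numbers were taken to pair samples and a second model used them as a block. The scripts were tested on simulated data.

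The 9 genes and the lists were chosen with earlier results of these data known. Genes named are the 9, every other Cyp4 probe set, up to 4 genes per list with the smallest p, and 3 similar profiles for each of 3 genes. Other named list members, the dim limit, the promoter motifs and the neighbours were chosen after values were seen. The p-values set each group difference against the spread between these samples, moderated by limma over all probe sets. Without the replicate block this spread includes differences between replicate numbers.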

Additional observations from a re-analysis of the deposited data

How the results depend on the processing

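The 9 Cyp4 differences were computed again in 19 ways, which gave 166 values, since the stricter filter on dim probe sets left out 4 of the 9 genes and the other filter left out 1. Of these, 159 kept their direction and stayed short of the threshold, 6 turned their sign and 1 passed. The 1 that passed was Cyp4v3 without BMP2 replicate 3 (0.26, limma adjusted p = 0.0255), which made the count of the 9 genes called 1 in that fit and 0 in all others, the replicate block included (adjusted p for Cyp4v3 0.29). The sign turned only in the dim genes and only with samples left out, where the difference ranged from -0.0039 to 0.0234 for Cyp4a10, from -0.0114 to 0.0155 for Cyp4a14 and from -0.0015 to 0.0229 for Cyp4b1. Over the same fits it ranged from 0.12 to 0.26 for Cyp4v3, from 0.07 to 0.15 for Cyp4f13 and from -0.0903 to -0.0068 for Cyp4f16. The number of all probe sets called was 251, and it was 702 with a fixed and 700 with a random replicate block, 438 with an intensity trend, 468 with a robust trend, 455 with the stricter filter, 403 with array weights, 2 to 223 with samples left out and 2643 at an unadjusted p under 0.05. The cause was not tested, except that fits with samples left out have fewer samples. The block changed no call of the Cyp4 genes at the adjusted threshold. For the 6 dim genes signal over background limits every statement.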
